A study of Mus musculus with 18 samples.

Results

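The 9 skeletal muscle genes described here are Acta1, Actc1, Mylpf, Tnnc2, Myl1, Ckm, Myh3, Myog and Tnni1. They were taken by symbol from the annotation of the MOE430A array, an Affymetrix chip for mouse genes, and stand among 12393 genes measured there by a probe set with 1 gene symbol. Each has 1 probe set. The arrays hold RNA of the oviduct, uterus and vagina of newborn ICR mice, all derived from the Müllerian ducts. The groups are offspring of mothers injected daily with diethylstilbestrol (DES), a synthetic estrogen, at 67 µg per kg from fetal day 10 to 18, and offspring of oil-treated mothers. Per the labels, RNA was taken on the day of birth from 3 litters. The labels name no transgene or deletion, and every group is of the same strain. The sources used here do not say whether an array holds 1 animal or a pool, or whether its number stands for a litter. P-values measure only the spread between these samples. The groups are DES oviduct and oil oviduct (3 arrays each), DES uterus and oil uterus (3 each), and DES vagina (2) and oil vagina (3). The third DES vagina sample was run on an older chip and entered no fit.

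Skeletal muscle forms when myoblasts leave the cell cycle, switch on myogenin (Myog), a transcription factor of differentiation, and fuse into multinucleated fibres. Young fibres assemble sarcomeres from embryonic isoforms, among them embryonic myosin heavy chain (Myh3) and cardiac alpha-actin (Actc1), which fetal skeletal muscle also uses. Maturing fast fibres add skeletal alpha-actin (Acta1), the fast myosin light chains Mylpf and Myl1, fast troponin C (Tnnc2) and muscle creatine kinase (Ckm), which buffers ATP. Tnni1, slow troponin I, is the inhibitory troponin subunit of slow and developing fibres. Around birth, embryonic isoforms give way to perinatal and adult ones. The walls of the Müllerian organs hold smooth muscle, whereas the striated muscle of the region lies around the lower vagina and urethra and in the pelvic and body wall.

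The upstream sequences of 5 members are printed because these genes moved together on the vagina arrays and apart on some others. They are the 250 bases before the annotated start from RefSeq on GRCm38.p6, where all 9 members matched. Capitals mark matches to the E-box, CANNTG, which myogenin and its relatives bind, and to the CArG box, the site of serum response factor. Either pattern reads the same on both strands, and no match of one overlaps a match of the other in the sequences printed. Myog and Myh3, embryonic members, lie at chr1:134289754-134290003 (plus strand) and chr11:67078050-67078299 (plus strand), and Actc1 at chr2:114052876-114053125 (minus strand). Acta1 and Ckm, mature members, lie at chr8:123894776-123895025 (minus strand) and chr7:19410844-19411093 (plus strand).
Myog: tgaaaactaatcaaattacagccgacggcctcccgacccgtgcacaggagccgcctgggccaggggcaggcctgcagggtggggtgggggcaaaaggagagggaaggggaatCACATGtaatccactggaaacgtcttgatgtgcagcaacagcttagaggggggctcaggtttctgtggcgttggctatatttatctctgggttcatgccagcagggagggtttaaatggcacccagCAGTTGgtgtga
Myh3: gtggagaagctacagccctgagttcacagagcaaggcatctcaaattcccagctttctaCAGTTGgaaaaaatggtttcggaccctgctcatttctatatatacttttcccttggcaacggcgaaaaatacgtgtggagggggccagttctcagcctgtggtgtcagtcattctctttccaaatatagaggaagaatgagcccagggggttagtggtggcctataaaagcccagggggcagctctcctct
Actc1: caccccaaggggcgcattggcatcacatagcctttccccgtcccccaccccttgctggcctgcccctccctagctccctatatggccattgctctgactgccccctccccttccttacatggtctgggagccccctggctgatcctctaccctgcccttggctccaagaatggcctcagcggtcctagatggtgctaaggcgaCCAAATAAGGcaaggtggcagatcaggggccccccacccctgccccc
Acta1: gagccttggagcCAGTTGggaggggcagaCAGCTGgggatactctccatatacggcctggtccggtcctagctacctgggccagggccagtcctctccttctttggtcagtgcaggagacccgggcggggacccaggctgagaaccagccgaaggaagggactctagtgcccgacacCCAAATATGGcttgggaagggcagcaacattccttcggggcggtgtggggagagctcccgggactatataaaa
Ckm: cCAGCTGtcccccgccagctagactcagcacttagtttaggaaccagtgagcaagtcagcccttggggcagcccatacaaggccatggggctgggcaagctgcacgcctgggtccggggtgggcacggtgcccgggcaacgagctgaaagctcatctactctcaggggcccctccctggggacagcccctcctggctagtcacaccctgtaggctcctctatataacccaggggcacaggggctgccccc
An E-box was found for 8 of the 9 members, all but Actc1, beside 66.2% of all 32851 promoter windows of this length. A CArG box was found for the actin genes Acta1 and Actc1 alone, 2 of 9, beside 1.5% of all windows. A match describes the letters only.

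All values are signal intensities scaled to a trimmed mean of 500 on each array, given with the array maker's detection call (Present, Marginal or Absent) and compared between arrays for the same gene only. Scanning took place on different days for arrays 1 and 2, read first, and for arrays 3, read later. Names of the later arrays give an age in days post coitum and those of the earlier ones the day of birth, so age and scan day cannot be told apart. Before scaling, the trimmed mean was 26.5 to 79.3 on the 11 arrays of the first day and 108.4 to 143.5 on the 6 of the second. Of all probe sets, 52.7% to 58.6% and 63.7% to 66.3% were called Present. Oil oviduct array 1 has no calls, because its own file repeats that of DES oviduct array 1. DES oviduct array 3 is recorded as vagina in its scanner file, although its oviduct gene Ovgp1 measured 4219 and its vagina gene Hoxd13 only 4.2. In RNA of whole organs, fewer muscle cells and less muscle RNA per cell cannot be told apart.

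The vagina arrays carried the whole set: embryonic, mature and slow genes together. On both DES vagina arrays all 9 genes were called Present, and on the oil vagina arrays 7, 9 and 9. Myog measured 669 and 997 on the DES vagina arrays, against 221, 464 and 776 on the oil vagina arrays. Myh3 measured 2722 and 3806 in DES vagina, against 470.2, 1446 and 2310.2 in oil vagina. Actc1 measured 6627 and 6474 in DES vagina, against 1803, 4352 and 5169 in oil vagina. For these embryonic genes oil vagina array 1 was the lowest of the vagina arrays, and for Myh3 and Actc1 the DES arrays lay above all oil arrays.

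The mature fast genes were also lowest on oil vagina array 1, but on the other oil vagina arrays all 5 were higher on array 2 than on array 3, where the embryonic genes were higher on array 3. Acta1 measured 4175 and 5433 in DES vagina, against 1056, 4186 and 3406 in oil vagina. Mylpf measured 2574 and 3905 in DES vagina, against 496, 2693 and 2368 in oil vagina. Tnnc2, the calcium sensor of the fast thin filament, measured 2009.9 and 3048 in DES vagina, against 419.5, 2064 and 1663 in oil vagina. In each of these 3 genes the groups overlapped, with oil vagina array 1 far below the rest. Myl1, the essential light chain, measured 4445 and 5749 in DES vagina, against 882, 4132 and 3469 in oil vagina, without overlap. Ckm measured 799 and 736 in DES vagina, against 236, 1144 and 607 in oil vagina, and its oil arrays enclosed the DES ones. The slow gene Tnni1 measured 1308 and 1817 in DES vagina, against 413, 1003 and 1316 in oil vagina, a slight overlap. On oil vagina array 1 the 9 genes stood at 19.6% (Mylpf) to 37.9% (Actc1) of the mean of the other oil vagina arrays. That array also had the lowest summed signal of the 8 keratinocyte genes in its group, 3278, where the highest was 12251. Summed signals of 13 smooth muscle and 10 neural genes were lowest on oil vagina array 2 instead, at 35294 and 5019. The vagina gene Hoxd13 measured 396, 377 and 365 on oil vagina arrays 1 to 3. The part of tissue composition was not tested.

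**Figure D1:**
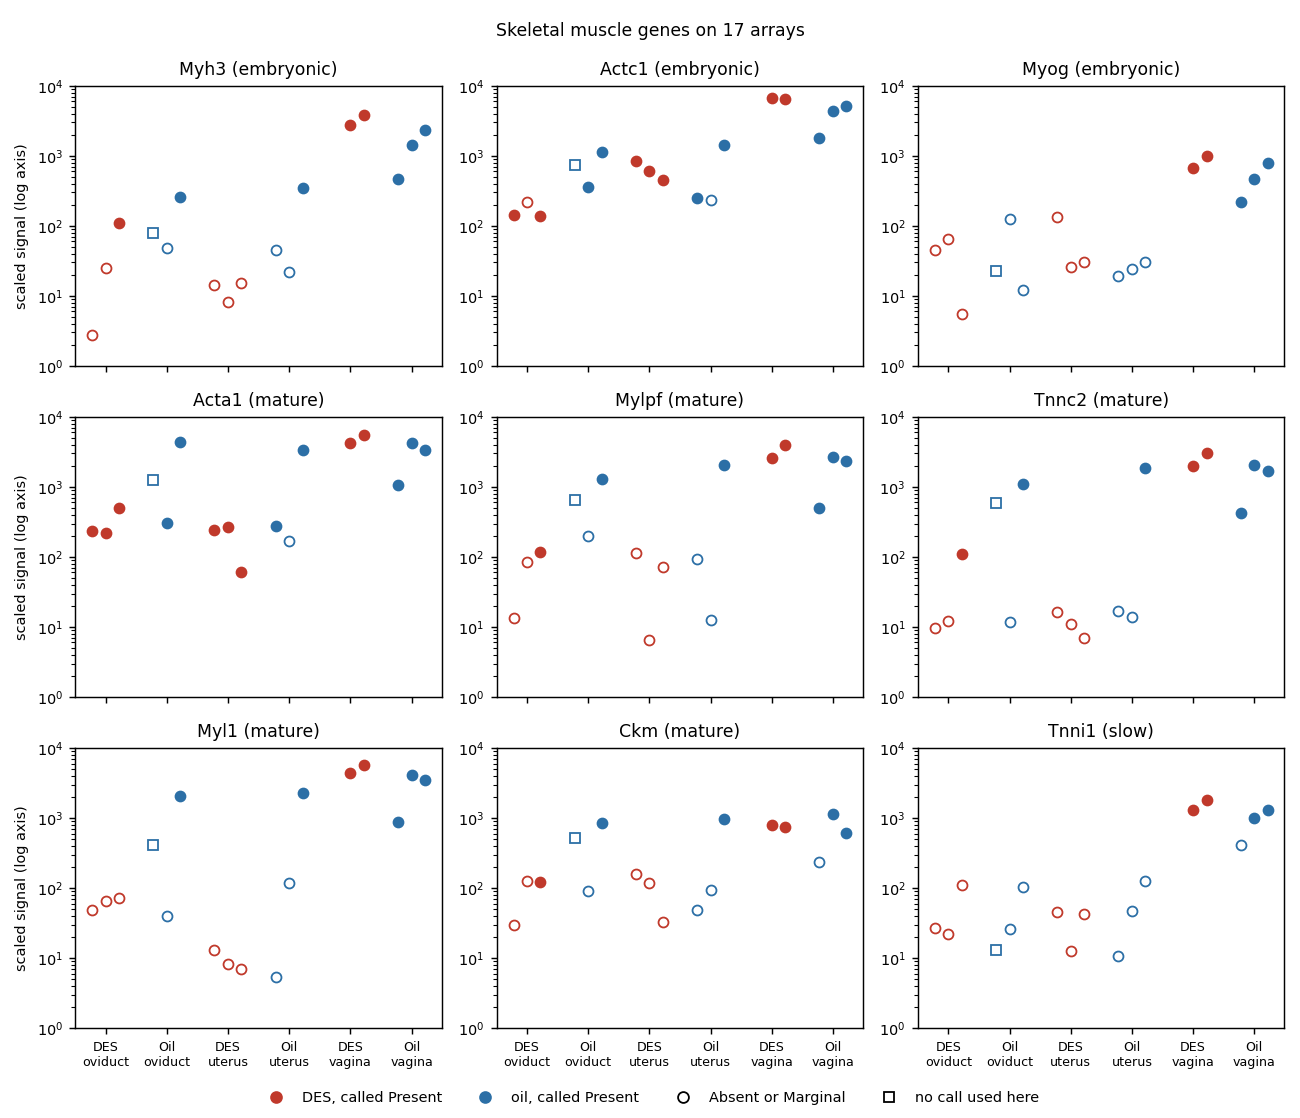
Scaled signal (log axis) of the 9 genes on each of 17 arrays, arrays 1 to 3 from left to right within a group, DES in red and oil in blue. Filled circles are called Present, open circles Absent or Marginal, and the open square is oil oviduct array 1, which has no call. Myog and Tnni1 stand high in the vagina alone, while the mature genes also stand high on oil oviduct arrays 1 and 3 and oil uterus array 3.

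In the uterus and oviduct, mature fast genes were present on some oil arrays without Myog or Tnni1. Mylpf measured 115, 6.41 and 72.8 in DES uterus, all called Absent, against 93.9, 12.8 and 2022 in oil uterus. Tnnc2 measured 16.4, 11 and 6.97 in DES uterus, again all Absent, against 17.1, 13.9 and 1834 in oil uterus. Oil uterus array 3 alone was called Present for either gene, at levels inside the range of the oil vagina arrays. Myl1 measured 13.1, 8.25 and 6.97 in DES uterus, against 5.34, 119.7 and 2282 in oil uterus. Ckm measured 159.9, 116 and 32.8 in DES uterus, against 49.1, 95.3 and 972 in oil uterus. Both repeat the pattern of the other light chain and troponin C, with oil uterus array 3 the only one called Present.

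In the oviduct the same genes separated oil arrays 1 and 3 from oil array 2. Mylpf measured 13.6, 83.8 and 119 in DES oviduct, against 650.04, 199.7 and 1280.3 in oil oviduct. Tnnc2 measured 9.55, 12 and 111 in DES oviduct, against 596, 11.7 and 1111 in oil oviduct. Myl1 measured 49.1, 66.2 and 71.0 in DES oviduct, against 415, 40.1 and 2095 in oil oviduct. The higher values came from oil arrays 1 and 3 each time, 1 from each scan day. Ckm measured 30.0, 125 and 120.4 in DES oviduct, against 524, 89.4 and 841 in oil oviduct. On DES oviduct array 3 a low signal was also called Present for 6 of the 9 genes, Mylpf, Tnnc2 and Ckm among them.

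Myog and Tnni1 stayed at background on every uterus and oviduct array. Of the 11 such arrays with calls, 0 were Present for either gene. Myog measured 134, 25.7 and 30.7 in DES uterus, against 19.2, 24.4 and 30.9 in oil uterus, and 45.0, 65.5 and 5.54 in DES oviduct, against 22.5, 127 and 11.9 in oil oviduct. Tnni1 ranged from 12.8 to 44.9 in DES uterus, against 10.7 to 124 in oil uterus. It ranged from 22.1 to 109 in DES oviduct, against 13.1 to 105 in oil oviduct. Oil uterus array 3 and oil oviduct array 3, bright for the mature genes, gave Tnni1 124 and 105, both called Absent. Myh3 took a middle place. It measured 14.2, 8.25 and 15.3 in DES uterus, against 44.8, 22.1 and 350.5 in oil uterus. It measured 2.73, 24.6 and 109.8 in DES oviduct, against 78.4, 48.5 and 261 in oil oviduct. Only array 3 of DES oviduct, oil oviduct and oil uterus was called Present for it outside the vagina, all below the lowest vagina array, 470.2.

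Set against the mean of the oil vagina arrays, the mature genes had the higher median on each of the 3 oil arrays. On oil uterus array 3 the 5 mature genes stood at 80.7% to 147% of that mean, Actc1 at 37.6%, Myh3 at 24.9%, Tnni1 at 13.7% and Myog at 6.34%. On oil oviduct array 3 the mature genes stood at 69.1% to 154%, Actc1 at 30.3%, Myh3 at 18.5%, Tnni1 at 11.51% and Myog at 2.45%. On oil oviduct array 1 they stood at 14.7% to 79.2%, Actc1 at 19.3%, Myh3 at 5.57%, Myog at 4.62% and Tnni1 at 1.44%. On the oil vagina array with least muscle signal, array 1, the mature genes stood at 26.8% to 36.6% and the embryonic genes at 33.4% to 47.8%. On oil uterus array 3 and oil oviduct array 3 every mature gene stood above every embryonic gene, while on oil oviduct array 1 Actc1, at 19.3%, stood above Myl1, at 14.7%.

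**Figure D2:**
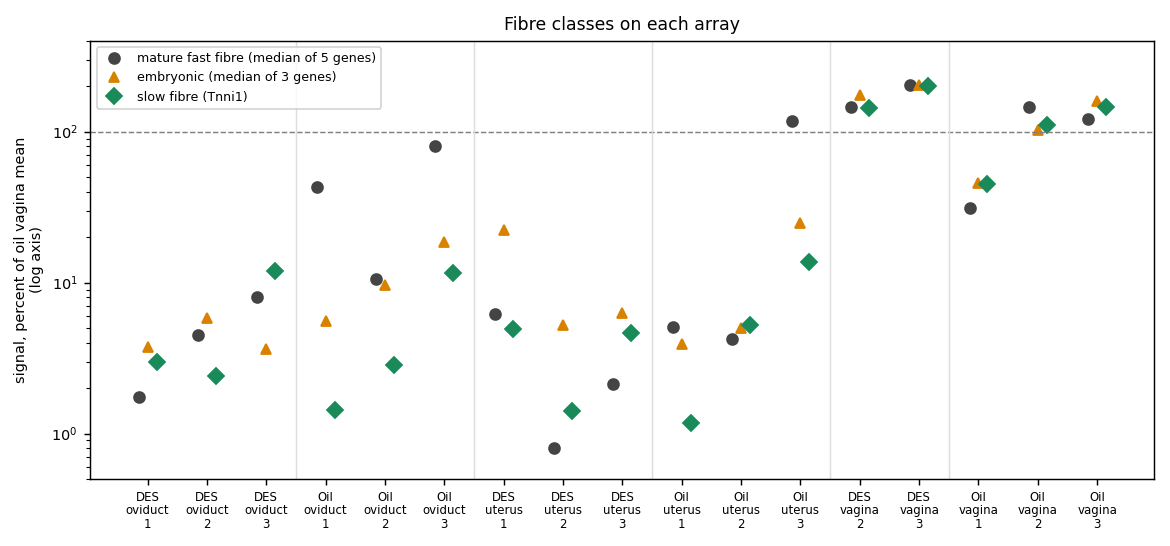
Signal of each fibre class on each array as a percentage of the oil vagina mean of the same gene (log axis). Black circles are the median of the 5 mature genes, orange triangles that of the 3 embryonic genes and green diamonds Tnni1. Each gene is set against its own oil vagina mean, so the classes lie near each other on the oil vagina arrays by construction. On oil vagina array 2 the mature median is 146% against 103% for the embryonic genes. On oil uterus array 3 the mature median is 117% against 24.9% for the embryonic genes.

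The balance of an array, the mean log2 signal of the embryonic genes minus that of the mature genes, puts the same difference into 1 number. It was -0.05 and -0.08 on the DES vagina arrays, against 0.09, -0.82 and 0.11 on the oil vagina arrays. The mean was -0.06 ± 0.02 (SD, n = 2) in DES vagina and -0.20 ± 0.53 (SD, n = 3) in oil vagina. The balance was -2.01 on oil oviduct array 1, -2.74 on oil oviduct array 3 and -2.60 on oil uterus array 3. These 3 lie below every vagina array. DES oviduct array 3, at -0.88, also lay below the lowest vagina array, at -0.82. In DES uterus it was 0.76, 0.54 and 0.85, against 0.20, -0.04 and -2.60 in oil uterus, where arrays 1 and 2 and all DES uterus arrays had most members at background. Actc1 was the only embryonic member called Present in DES uterus. In DES oviduct it was 0.02, -0.04 and -0.88, against -2.01, 0.46 and -2.74 in oil oviduct.

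**Figure D3:**
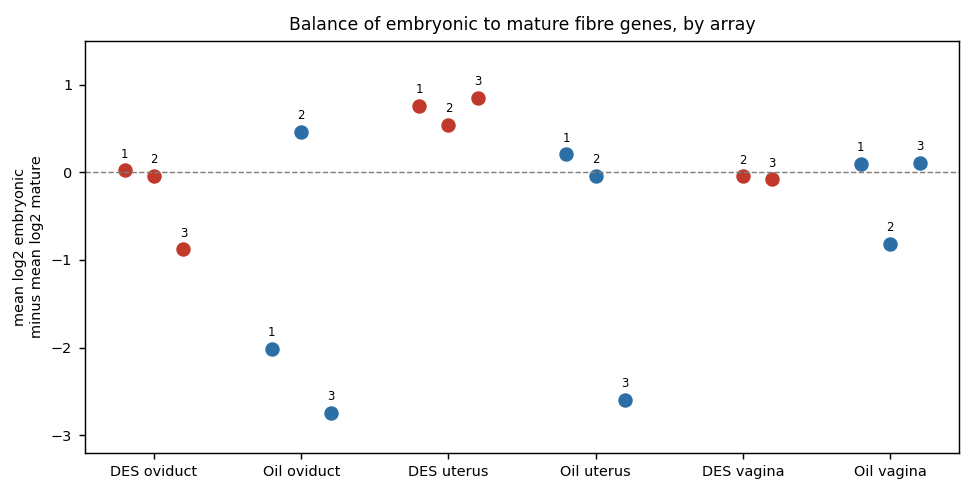
Mean log2 signal of Myh3, Actc1 and Myog minus that of Acta1, Mylpf, Tnnc2, Myl1 and Ckm on each array, numbered by array, DES in red and oil in blue. Oil oviduct arrays 1 and 3 and oil uterus array 3 lie at -2.01, -2.74 and -2.60, below the vagina arrays. DES oviduct array 3, at -0.88, lies just below the lowest vagina array, at -0.82.

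The actins had signal almost everywhere. Acta1 measured 245, 268 and 61.0 in DES uterus, all Present, against 281, 166 and 3376 in oil uterus. It measured 237, 219 and 495 in DES oviduct, also all Present, against 1234, 307 and 4435 in oil oviduct. Of the 11 uterus and oviduct arrays with calls, 10 were Present for Acta1, though the other mature genes were Present on 2 or 3. Actc1 measured 842, 610.2 and 448 in DES uterus, against 249.8, 230.0 and 1419 in oil uterus. It measured 141, 219 and 138 in DES oviduct, against 728, 363 and 1142 in oil oviduct. All DES uterus arrays lay above oil uterus arrays 1 and 2, and all DES oviduct arrays below every oil oviduct array. The actins are near-identical in protein sequence, and smooth muscle actin (Acta2) measured 11015 to 26666 in DES uterus and oviduct and 10356 to 12892 in oil. Its part in the low Acta1 and Actc1 signals was not tested.

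The first tested question is how the uterus and oviduct differ from the vagina under DES. All 9 genes averaged lower in DES uterus than in DES vagina, and 8 of 9 passed the test, all but Ckm. Of all 16702 probe sets tested, 1.64% passed the limma test at an adjusted p under 0.05 (1.26% lower, adjusted by Benjamini-Hochberg over all of them), and the median log2 change was -4.63 for the members and 0.01 for all. Myh3 averaged 12.6 ± 3.8 in DES uterus and 3264 ± 766 in DES vagina (SD, n = 3 and 2), at least 58.3-fold lower (log2 change -6.19 ± 0.77 SE, limma adjusted p = 0.000203). Myl1 averaged 9.5 ± 3.3 in DES uterus and 5097 ± 922 in DES vagina, at least 92.2-fold lower (adjusted p = 0.00765, limma). Myog and Tnni1 entered the test through vagina arrays alone, so their p-values against the vagina are given from a fit of all probe sets with no detection filter, where both passed in all 4 contrasts with the vagina. Myog averaged 63.3 ± 60.9 in DES uterus and 833 ± 232 in DES vagina, at least 9.97-fold lower (adjusted p = 0.00835, limma without the filter). "At least" marks folds where 1 group had no Present or Marginal call, and there a signal under the lowest Present one of its array was raised to that level. Ckm averaged 103 ± 64.6 in DES uterus and 767 ± 44.6 in DES vagina, without overlap but with an adjusted p of 0.268 (limma). Folds are on the log2(signal + 32) scale, which understates changes of dim genes.

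In DES oviduct against DES vagina the same 8 genes passed, all lower, where 5.12% of probe sets passed (2.39% lower). Without the detection filter 7 of the 9 passed. The median log2 change was -5.08, beside -0.0004 for all. Actc1 averaged 166 ± 45.9 in DES oviduct and 6550.5 ± 108 in DES vagina, 33.9-fold lower (adjusted p = 4.81e-05, limma). Tnni1 averaged 52.7 ± 48.7 in DES oviduct and 1562 ± 360.2 in DES vagina, at least 20.5-fold lower (adjusted p = 0.000297, limma without the filter). Mylpf was 34.6-fold lower in DES oviduct than in DES vagina (log2 change -5.11 ± 1.16 SE, limma adjusted p = 0.0128). Within either scan day all 9 genes were lower in DES uterus and in DES oviduct than in DES vagina, which has 1 array on each day. When each array was left out in turn, 2 to 8 of the 9 genes passed in uterus and 4 to 9 in oviduct. The lowest counts came without a DES vagina array: without array 2 they were 3 in uterus and 4 in oviduct, and without array 3 they were 2 and 4. In uterus 5 passed without DES uterus array 2 or 3, and in oviduct 5 without DES oviduct array 1.

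All 9 genes averaged lower in oil uterus than in oil vagina. Of these 4 passed the test, Actc1, Myh3, Myog and Tnni1, where 3.75% of probe sets passed (2.37% lower). All 3 embryonic genes and the slow gene passed, and 0 of 5 mature genes did by limma, although 8 of the 9 members, all but Ckm, had an unadjusted p under 0.05. Of the 4 that passed, Myog and Tnni1 entered the test through vagina arrays alone. Without the detection filter the count was also 4. The median log2 change was -3.04 for the embryonic and -2.74 for the mature genes, beside 0.02 for all probe sets. Standard errors were 0.53 to 0.69 for the embryonic genes and 0.83 to 1.21 for the mature ones. A difference between the classes was not tested. Tnni1 averaged 60.9 ± 57.9 in oil uterus and 910.4 ± 459 in oil vagina, at least 9.0-fold lower (adjusted p = 0.00165, limma without the filter). Myog averaged 24.8 ± 5.8 in oil uterus and 487 ± 278 in oil vagina, at least 7.28-fold lower (adjusted p = 0.00387, limma without the filter). Myl1 averaged 802 ± 1283 in oil uterus and 2828 ± 1718 in oil vagina (log2 change -3.33 ± 1.16 SE, limma adjusted p = 0.154). Mylpf averaged 709.6 ± 1137 in oil uterus and 1853 ± 1186 in oil vagina (log2 change -2.74 ± 1.04 SE, adjusted p = 0.208, limma). Without oil uterus array 3, 8 genes passed, and with scan day as a block 6 did, Myl1 and Mylpf added (limma adjusted p = 0.0244 and 0.0317). On the first scan day all 9 were lower (median -3.54) and on the second 7 lower and 2 higher (median -0.60). The second day holds 1 array of each group, oil uterus array 3 and oil vagina array 3.

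Oil oviduct against oil vagina called the same 4 genes, where 3.95% of probe sets passed (1.95% lower). The count was 4 without the detection filter too. Myh3 averaged 129 ± 115 in oil oviduct and 1409 ± 921 in oil vagina (log2 change -3.13 ± 0.69 SE, limma adjusted p = 0.0128). Tnni1 averaged 47.9 ± 49.7 in oil oviduct and 910.4 ± 459 in oil vagina, at least 11.49-fold lower (adjusted p = 0.000734, limma without the filter). The mature genes had a median log2 change of -1.35, with 0 past the limma threshold and Myl1 alone at an unadjusted p under 0.05. Acta1 averaged 1992 ± 2166 in oil oviduct and 2882.5 ± 1630 in oil vagina (log2 change -1.01 ± 0.93 SE, limma adjusted p = 0.782). The 9 genes were lower on the first scan day (median -2.37), and 7 lower and 2 higher on the second (median -0.87), with 1 array of each group. Only 2 of the 4 passed without oil oviduct array 1 or 2 or without oil vagina array 2 or 3. Whether these differences between organs changed with DES is tested by the interactions, given after the treatment comparisons.

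**Figure D4:**
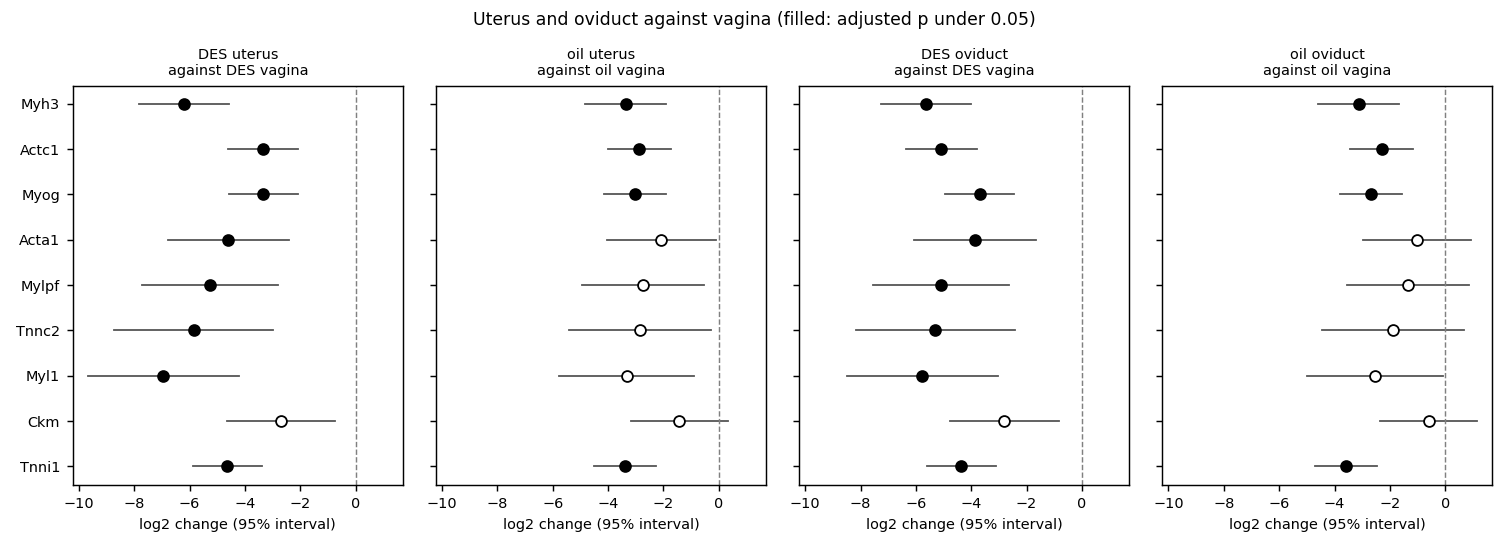
Log2 change (points) with its 95% interval from the limma fit (lines) for each gene, DES uterus and oil uterus against vagina at left, DES oviduct and oil oviduct against vagina at right. Filled points have an adjusted p under 0.05. With DES 8 of 9 genes are filled in either organ, and with oil 4 of 9, the embryonic genes Myh3, Actc1 and Myog and the slow gene Tnni1. Myog and Tnni1 entered this fit through vagina arrays alone. Without the detection filter the counts are 8 in uterus and 7 in oviduct with DES, and 4 in either with oil.

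The second question is what DES changed within an organ. In the oviduct 1 of 9 genes passed, Actc1, lower with DES, where 7.78% of probe sets passed (3.39% lower). Actc1 averaged 166 ± 45.9 in DES oviduct and 744 ± 390.1 in oil oviduct (log2 change -1.86 ± 0.54 SE, limma adjusted p = 0.043). The call ended without any 1 of DES oviduct arrays 1 to 3, oil oviduct array 1 or 3, DES uterus array 1 or 2, either DES vagina array, or oil vagina array 2 (limma adjusted p of 0.051 to 0.159). The 3 oil arrays with high mature genes were picked as a set after these values were seen. Without them only oil oviduct array 2 was left in its group, and the change was -1.02 on the log2 scale. Mylpf averaged 72.0 ± 53.4 in DES oviduct and 710.0 ± 543 in oil oviduct (log2 change -2.68 ± 1.04 SE, limma adjusted p = 0.149). It passed, beside Actc1, with scan day as a block (limma adjusted p = 0.0228). Groups did not overlap for 2 of 9 genes, Actc1 and Mylpf, and for 23.3% of all probe sets tested. On each scan day the DES mean lay below the oil mean for 8 genes, all but Tnni1, with 1 array of each group on the second day. Myl1 and Tnnc2 turned to 0.38 and 0.55 on the log2 scale without the 3 oil arrays, again against oil oviduct array 2 alone.

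In the uterus DES changed 0 of 9 genes by the limma test, where 8.45% of probe sets passed; 1 gene, Myl1, had an unadjusted p under 0.05. The median log2 change was -1.39, beside -0.06 for all. Myh3 averaged 12.6 ± 3.8 in DES uterus and 139 ± 183 in oil uterus (log2 change -1.39 ± 0.69 SE, limma adjusted p = 0.28). With scan day as a block, Myh3 passed and the count was 1 (adjusted p = 0.0283, limma), and with the replicate block likewise (adjusted p = 0.0315, limma). Myh3 was the 1 gene of 9 whose groups did not overlap, beside 24.8% of all probe sets. Actc1 averaged 633.4 ± 198 in DES uterus and 632.9 ± 681 in oil uterus (log2 change 0.44 ± 0.54 SE, limma adjusted p = 0.746). By scan day, 3 genes were lower and 6 higher with DES on the first (median 0.01), and all 9 lower on the second (median -3.95). That second day holds 1 array of each group, DES uterus array 3 and oil uterus array 3. With the first scan day alone Actc1 passed, higher with DES (log2 change 1.46, limma adjusted p = 0.0144).

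In the vagina DES changed 0 of 9 genes by the limma test, where 2.15% of probe sets passed, and 0 genes had an unadjusted p under 0.05. All 9 means were higher with DES, on each scan day too (median log2 change 1.07 and 0.67). The first day set DES vagina array 2 against oil vagina arrays 1 and 2, and the second day 1 array against 1. DES vagina array 2 lay below oil vagina array 2 for Acta1, Mylpf, Tnnc2 and Ckm, and above it for the other members. The median over both days was 0.94, beside -0.03 for all probe sets. Groups did not overlap for Myh3, Actc1 and Myl1, 3 of 9 genes, beside 25.1% of all probe sets. Myh3 had the largest change, 1.44 on the log2 scale with a 95% interval from -0.19 to 3.06 (limma adjusted p = 0.521). The interval for Ckm ran from -1.51 to 2.40 (log2 change 0.45, limma adjusted p = 0.94), and without oil vagina array 1 that change was -0.12. Of 8 keratinocyte genes 2 passed as higher with DES in vagina, with summed signals of 20739 to 32629 in DES vagina and 3278 to 12251 in oil vagina. The smooth muscle list had 0 of 12 past the threshold and sums of 41533 to 48097 in DES vagina and 35294 to 52559 in oil vagina. Their part in the muscle gene means was not tested.

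**Figure D5:**
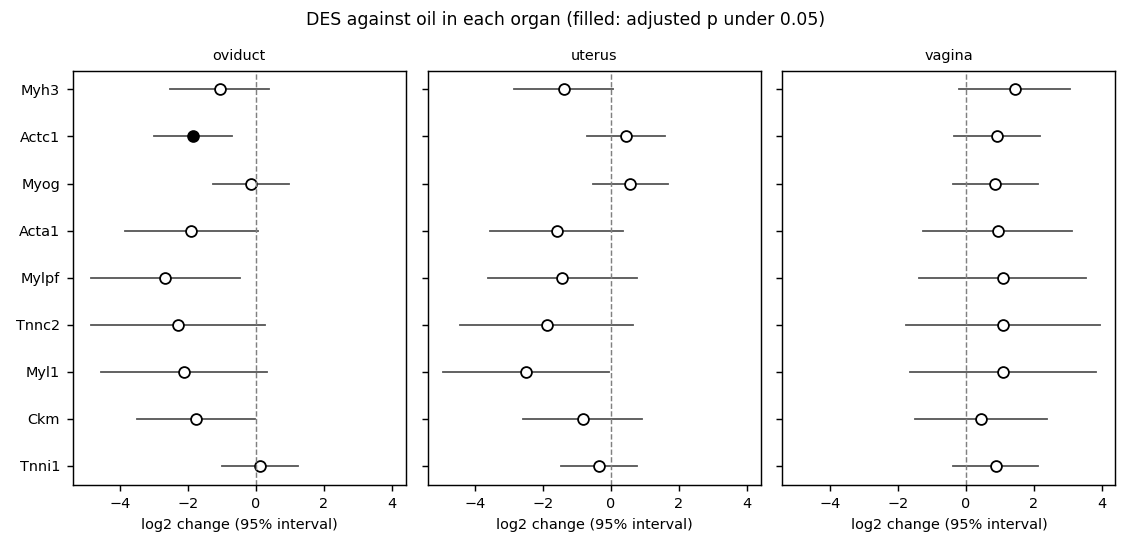
Log2 change of DES against oil (points) with its 95% interval from the limma fit (lines) for each gene in oviduct, uterus and vagina. Filled points have an adjusted p under 0.05. Actc1 in oviduct is the only filled point, at -1.86, and in vagina all 9 points lie above 0 with intervals that cross it.

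The test for a DES effect that differs between organs called 0 of the 9 genes. Past the threshold were 0 genes for uterus minus oviduct (1.3% of probe sets; 1 gene at an unadjusted p under 0.05), for vagina minus uterus (0.222%; 1 gene) and for vagina minus oviduct (1.36%; 3 genes), all by limma. The medians for the mature genes were 2.53 for vagina minus uterus and 3.23 for vagina minus oviduct. These contrasts share arrays with those above. Between uterus and oviduct, 0 genes passed in DES oviduct against DES uterus (4.21% of probe sets; 1 gene at an unadjusted p under 0.05) and 0 in oil oviduct against oil uterus (1.47%; 0 genes). Actc1 averaged 166 ± 45.9 in DES oviduct and 633 ± 198 in DES uterus (log2 change -1.73 ± 0.54 SE, limma adjusted p = 0.0904), and passed with scan day as a block (limma adjusted p = 0.0204).

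Other genes of striated muscle, 82 on lists of fibre isoforms, regulators, sarcomere, membrane and metabolic genes, followed the members in part. Of these, 70 had a probe set and 52 were tested. In DES uterus against DES vagina 15 passed as lower and 1 as higher, beside 1.26% of all probe sets lower. In DES oviduct against DES vagina 19 and 1 passed, beside 2.39% lower. In oil uterus and in oil oviduct against oil vagina it was 6 and 1 each, beside 2.37% and 1.95% lower. The higher one was Igf2, a growth factor of many fetal tissues, in each case. For DES against oil, 3 passed as higher and 2 as lower in oviduct, and 1 as higher and 1 as lower in uterus. In vagina 0 passed by limma. Of all probe sets 7.78%, 8.45% and 2.15% passed in these organs.

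In oil uterus against oil vagina, 2 of 6 embryonic and perinatal genes outside the members passed as lower and 1 as higher. For the slow genes 1 of 7 passed as lower, and 0 of 9 fast genes passed by limma. The difference between these lists was not tested. Tnnt2, the troponin T of heart and embryonic muscle, averaged 42.5 ± 14.2 in DES uterus and 787 ± 9.2 in DES vagina, and 74.9 ± 18.2 in oil uterus and 456 ± 214 in oil vagina, past the threshold in either. Tnnc1, the slow troponin C, averaged 227 ± 67.3 in DES uterus and 2319 ± 399.8 in DES vagina, and 97.5 ± 13.9 in oil uterus and 1148 ± 674 in oil vagina, again past it in either. Myl4, an embryonic light chain, averaged 186 ± 64.5 in oil uterus and 826 ± 327 in oil vagina and passed too. The 9 fast fibre genes had a median log2 change of -0.46 in oil uterus against oil vagina. Tnni2, fast troponin I, measured 440.1, 13.4 and 634 in oil oviduct and 16, 19.8 and 989 in oil uterus, against 72.7, 863 and 656 in oil vagina. Its high arrays outside the vagina were the 3 named above. It was called Absent on all DES uterus and DES oviduct arrays, at 6.9 to 14.7. Myh8, perinatal myosin, is on the embryonic and perinatal list but was Present on oil uterus array 3 as the fast genes were: it measured 67.3, 19.8 and 654 in oil uterus, against 138.5, 852 and 337 in oil vagina.

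Among the fast fibre genes that are no members, 8 of 11 were Present on oil uterus array 3 and 6 on oil oviduct array 3, with 2 on each other oil uterus or oviduct array with calls. Of the 9 regulators and stem cell genes besides Myog, oil uterus array 3 had 2 Present and oil oviduct array 3 had 3. Myod1, the determination factor, was Absent on all uterus and oviduct arrays with calls, and was Present in vagina on DES array 3 (199) and oil array 3 (107). Both are arrays of the second scan day. It was called Absent at 195 on DES vagina array 2 and at 188 and 122.5 on oil vagina arrays 1 and 2. The stem cell factor Pax7 was Present on 0 of 16 arrays with calls, at 4.7 to 114.6. Adult fast myosin Myh4 was also Present on 0, at 3.2 to 81.7. The calcium channel gene Cacna1s, a defining gene of skeletal muscle, was Present on 0, with a highest signal of 118.

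The 10 genes outside the members whose signal followed the mean of the 9 most closely were all on these lists: Ttn, Sln, Smpx, Actn2, Tnnt3, Tnni2, Myh8, Casq2, Myom2 and Myoz2. Over 17 arrays, Pearson's r ran from 0.976 for Ttn, the giant sarcomere spring, to 0.903 for Myoz2. Within groups, over deviations from the group mean, r was highest for Tnni2 (0.948) and lowest for Myom2 (0.658). These arrays share groups and scan days, so the values are descriptions. The Ttn probe set of that likeness measured 864 and 1220.0 in DES vagina, against 221, 737 and 858 in oil vagina. It measured 10.9, 59.6 and 2.8 in DES uterus, against 43.8, 39.5 and 334 in oil uterus. A brighter Ttn probe set, the one used for the lists, also stood higher in the vagina, with 1663 and 1481 in DES vagina and 41.6, 56.8 and 53.3 in DES uterus.

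Markers of other tissues were measured beside the muscle genes. The heart genes Myh6 and Tnni3 were Present on 0 of the 16 arrays with calls, at most 50 and 132, and Ucp1 of brown fat on 0, at most 33.9. Other markers of these tissues were Present on some arrays. The heart gene Myl7 was Present on DES uterus arrays 1 to 3 (190.5, 198.8 and 108.0). It was also Present on DES oviduct array 2 (78.2) and oil oviduct array 3 (51.7). Nppa, another heart gene, was Present on DES vagina array 3 alone (43.4). Cidea of brown fat was Present on DES oviduct arrays 1 to 3 (620, 602 and 531) and oil vagina array 3 (111). The tendon gene Tnmd was Present on oil oviduct array 3 (203) and oil uterus array 3 (121), and on DES vagina array 3 (88.1). On oil oviduct array 1 it measured 5.1. Tnmd is on a list of tendon, cartilage and bone genes, 12 of them with a probe set. Of these, 2 to 3 were Present on an oil oviduct array and 2 to 4 on an oil uterus array. In DES oviduct it was 2 to 4 and in DES uterus 2 to 3. Their summed signals were 1023 to 1323 in oil oviduct and 910 to 1475.5 in oil uterus. The sums in DES oviduct were 732 to 1326 and in DES uterus 718 to 1456. The vagina genes Hoxd13 and Krt5 stood below every vagina array on the 3 oil arrays. Hoxd13 measured 9.4, 6.6 and 2.4 on oil oviduct arrays 1 and 3 and oil uterus array 3, against 365 to 396 in oil vagina. Krt5 measured 26.9, 102 and 81.2 there, against 581 to 1209.9 in oil vagina. The summed signal of 10 neural genes was 3381 to 5661 in oil oviduct and 1371 to 2124 in oil uterus, against 5019 to 7241 in oil vagina. In oil oviduct the lowest sum was on array 2 and the highest on array 3. In oil uterus the lowest was on array 3 and the highest on array 2. Nefl, 1 of the 10, measured 995, 779.5 and 1601 in oil oviduct, and 108, 240.5 and 166.5 in oil uterus. Stmn2, another, measured 695, 836 and 1144 in oil oviduct, and 488, 645 and 434 in oil uterus. The part of neighbouring tissue in the muscle signal of the 3 oil arrays was not tested.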

How the data were processed

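Each deposited array file lists, per the file headers, the linear signal intensity of every probe set with its detection call and the call's p-value. The value table holds the same intensity for all arrays except oil oviduct array 1, whose values were taken from it. The software behind the authors' signals is not given in the sources used here. Each array's signals were brought to a 2% trimmed mean of 500, and log2(signal + 32) was computed from the deposited intensities. Probe sets Present on at least 2 arrays were tested: 16702 of 22626, and all 9 members. Myog and Tnni1 passed that filter through vagina arrays alone. limma 3.58.1 in R 4.3.3 was fitted to 17 arrays with 1 mean per group and a variance trend (11 residual, 5.81 prior degrees of freedom). P-values were adjusted by Benjamini-Hochberg over all probe sets, with a threshold of 0.05. All members are named. Lists give at most 4 genes past the threshold and 2 others, and other listed genes named were chosen after their values were seen. Members and lists were chosen with earlier results of these data known. Deviations from group means correlated with a median r of 0.284 (0.097 to 0.588) between arrays of the same number, 0.233 between numbers 1 and 2, which share a scan day, and -0.351 (-0.54 to -0.184) across scan days. Numbers were not treated as pairs, since not every same-number r passed 0.1, and scan day and number were tried as blocks. Tested on simulated data for DES against oil, the fit found 88% (oviduct), 90% (uterus) and 85% (vagina) of 200 probe sets changed by 2 on the log2 scale, and 46.5%, 43.5% and 28.5% of those changed by 1. These shares were not computed for the members, some of which spread widely. In oil uterus the log2 SD was 2.20 for Acta1 and 3.06 for Tnnc2. The shares therefore do not say how often such changes of these genes would be found.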

Additional observations from a re-analysis of the deposited data

Results flagged for a closer look

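For 2 genes the DES groups lay wholly on opposite sides of the oil groups in different organs. Actc1 was lower on all 3 DES oviduct arrays than on all oil oviduct arrays, and higher on both DES vagina arrays than on all oil vagina arrays. The DES effect in vagina minus that in oviduct was 2.78 on the log2 scale (95% interval 1.08 to 4.49, limma adjusted p = 0.133). Myh3 was lower on all DES uterus arrays than on all oil uterus arrays, and higher on both DES vagina arrays than on all oil vagina arrays. The DES effect in vagina minus that in uterus was 2.83 (95% interval 0.64 to 5.01, limma adjusted p = 0.626). Neither difference passed the threshold. Over all 16702 probe sets tested, 1.53% lay on opposite sides for vagina and oviduct and 0.587% for vagina and uterus, beside 1 of the 9 members each.

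DES vagina array 1, on the older chip, was outside every comparison. Of its 13 probe sets for the 9 genes, 8 were called Present, 2 Marginal and 3 Absent, on a chip with 49.1% of probe sets Present. At least 1 probe set was Present for 7 of the genes, with Myog, Myh3, Actc1 and Tnni1 among them. The 2 Mylpf probe sets were Marginal, the 2 Ckm probe sets Absent, and Tnnc2 had 1 Present and 1 Absent. Its signals were not set against those of the other chip.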

How the results depend on the processing

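Among 64 single-gene results, 25 passed the threshold, and over 792 alternatives of those 717 kept the call, 75 lost it and 0 changed sign; 15 of the 25 lost it at least once. For DES against oil in the oviduct the count of 1 gene became 0 with a pseudocount of 100, with no detection filter and with no variance trend. It also became 0 without the 2 oviduct arrays with conflicting records. The count became 2 with the replicate block, with scan day as a block and with only the groups compared. It ran from 0 to 2 when single arrays were left out. Leaving out the 3 oil arrays with fast fibre genes leaves 1 oil oviduct array, so no oviduct count is given for it. Both this set of 3 and the set of 2 were chosen after seeing the data. In the uterus the count of 0 became 1 with the replicate block, with scan day as a block and with the first scan day only. For DES oviduct against DES uterus 0 became 1 under those 3, with array weights, with only the groups compared and without the 3 oil arrays, and was 0 to 1 without single arrays. The interaction of uterus minus oviduct became 1 with array weights and the first scan day, and that of vagina minus oviduct with these and scan day as a block (0 to 1 without single arrays for either). For DES uterus against DES vagina 8 became 5 with a pseudocount of 1 or no variance trend, and 2 to 8 without single arrays. For DES oviduct against DES vagina 8 became 7 with no detection filter, and 4 to 9 without single arrays. For oil oviduct against oil vagina 4 became 2 among probe sets Present on at least 6 arrays, where fewer are tested, and 2 to 4 without single arrays. For oil uterus against oil vagina 4 became 2 under that filter, 8 with array weights or the first scan day, and 9 without the 3 oil arrays, and 3 to 8 without single arrays. The balance on oil oviduct array 3 was -3.37 with a pseudocount of 1. The replicate block also gave 6 for oil uterus against oil vagina and left the other 8 counts as they were.

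Changes of sign concerned results that had not passed. For DES against oil in uterus, the first scan day gave 0.21 for Acta1, 0.73 for Ckm, 0.0008 for Mylpf and 0.0102 for Tnni1, and array weights 0.0027 for Ckm. Without the 3 oil arrays, and equally without oil uterus array 3, Ckm was 0.27, Mylpf 0.16 and Tnni1 0.12. For DES against oil in oviduct without the 3 oil arrays, where oil oviduct array 2 alone was left, Myl1 was 0.38 and Tnnc2 0.55. Myog was 0.0516 with array weights and 0.0525 without the 2 conflicting arrays, 0.26 without DES oviduct array 3 and 0.42 without oil oviduct array 2. Tnni1 was -0.65 without the 2 conflicting arrays, -0.33 without DES oviduct array 3, -0.21 without oil oviduct array 1 and -0.03 without oil oviduct array 2. Ckm was -0.12 for DES against oil in vagina without oil vagina array 1, and 0.25 for oil oviduct against oil vagina without oil oviduct array 2. When single arrays were left out, these results ranged from -0.51 to 0.42 (Myog) and -0.33 to 0.59 (Tnni1) in oviduct, from -2.60 to 0.16 (Mylpf), -1.54 to 0.27 (Ckm) and -0.81 to 0.12 (Tnni1) in uterus, from -0.12 to 0.95 for Ckm in vagina, and from -1.17 to 0.25 for Ckm in oil oviduct against oil vagina. The causes were not tested. Groups of 2 or 3 arrays limit precision, and signals of genes called Absent are background.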
